A study of Rattus norvegicus with 31 samples.

Results

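The genes of the contractile filaments were followed in RNA from the left ventricle of inbred rats. The set held 10 genes chosen by symbol: Tnni3, Tnnt2, Tnnc1 and Tnni1 for troponin, Myl2, Myl3 and Myh6 for myosin, and Tpm1, Actc1 and Mybpc3 for tropomyosin, actin and myosin binding protein C. All 10 were present among the 19100 RefSeq genes measured in 21 recombinant inbred strains. Among the 46063 genes assembled from the reads themselves, 9 of the 10 had a gene that carried their name alone, and Myh6 had none. The groups compared were 4 animals of the strain SHR/OlaIpcv (SHR), a hypertensive rat, set against 4 animals of BN-Lx/Cub (BN-Lx), and 12 HXB strains set against 9 BXH strains. HXB and BXH strains are inbred descendants of reciprocal crosses between SHR and BN-Lx, and each was represented by 1 library. Their names are given short here, and the full names end in /Ipcv for HXB strains and in /Cub for BXH strains. All animals were untreated males according to the study's notes, no age was given, and every library was made from total RNA depleted of ribosomal RNA. Both progenitor strains were sequenced in batch 1, while 6 recombinant inbred strains were in batch 2 and 15 in batch 3.

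Heart muscle shortens when myosin heads on the thick filament pull on actin of the thin filament. Calcium binds to troponin C, troponin I then releases its hold on actin, and troponin T passes the movement on to tropomyosin, which uncovers the sites for myosin. Myosin is built from heavy chains, an essential light chain and a regulatory light chain, and myosin binding protein C sets how readily its heads take part. The rat ventricle is known for using mainly the alpha heavy chain, encoded by Myh6, and for replacing the slow skeletal troponin I, Tnni1, with the cardiac form, Tnni3, around birth.

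Every value below is on the log2 scale as deposited, so that a difference of 1 is a 2-fold ratio, and no read counts came with it, so the depth behind a value is unknown. Added control RNAs (spike-ins) differed between the groups compared. Their mean log2 level was 6.70 ± 0.22 in SHR and 7.37 ± 0.37 in BN-Lx (SD, n = 4 each), and it was 6.82 ± 0.12 in the 12 HXB strains and 7.37 ± 0.37 in the 9 BXH strains. The atrial regulatory light chain Myl7 stayed between 5.30 and 7.78 in the progenitors, and no list of ventricular markers was examined. The summed level of 6 measured atrial markers lay between 12.2 and 13.5 in SHR and between 12.1 and 13.2 in BN-Lx. The erythroid marker sum was 17.7 to 19.2 in HXB and 18.1 to 19.1 in BXH, and its part in any result was not tested. SHR animal 4 was sequenced again in later batches, 2 and 3 by the labels. A single later library was among the assembled values. It was lower than the batch 1 library for each of the 9 members, by 0.07 for Tnnt2 up to 0.54 for Actc1, with a median of -0.12 over 10045 genes. Among the RefSeq values both later libraries were present, and they differed from each other by 0.0088 for Tnnc1 up to 0.158 for Myl3 among the members. Only the batch 1 library entered the comparison of progenitors.

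Levels of different genes were compared only per length, as log2 of the value per kilobase of transcript. In this order Myl2, the ventricular regulatory light chain, stood highest with 18.9 ± 0.10 in SHR and 19.0 ± 0.24 in BN-Lx (SD, n = 4 each). Cardiac actin, Actc1, followed with 18.0 ± 0.16 in SHR and 17.9 ± 0.15 in BN-Lx. Tnni3, Tpm1, Myl3 and Tnnt2 lay close together, between 17.0 and 17.3 in SHR and between 17.3 and 17.8 in BN-Lx, and Tpm1, Myl3 and Tnnt2 differed from each other by less than the larger SD of each pair. Tnnc1, cardiac troponin C, was at 16.4 ± 0.23 in SHR and 16.5 ± 0.27 in BN-Lx. Mybpc3 was lower at 14.5 ± 0.17 in SHR and 14.9 ± 0.15 in BN-Lx, and Tnni1 lowest at 6.25 ± 0.36 in SHR and 6.58 ± 0.44 in BN-Lx, more than 8 log2 units under every other member.

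Between the progenitors, 3 of the 9 members with an assembled gene passed the test (adjusted p below 0.05 by limma over all 46063 genes), all lower in SHR on the deposited scale and all with a positive difference, without passing, once libraries were scaled to the spike-ins. They were Tnni3, the inhibitory subunit of cardiac troponin, Tnnt2, its tropomyosin-binding subunit, and Tpm1, alpha-tropomyosin. Over all assembled genes 14.3% passed in either direction and 6.95% passed and were lower. The same 3 genes had SHR and BN-Lx ranges that did not overlap, against 20.6% of all assembled genes. The median difference over the 9 members was -0.26, with 8 negative and 1 positive, against 0.01 over all genes. It was -0.07 over the 2935 genes with the shortest transcripts, which included 8 of the members.

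Among the troponin genes, Tnni3 had 17.12, 17.09, 16.98 and 16.93 in the 4 SHR animals, against 17.64, 17.32, 17.60 and 17.43 in the 4 BN-Lx animals. Every SHR value was below every BN-Lx value, and the level fell by 27.6% in SHR (log2 difference -0.47, SE 0.08, adjusted p = 0.0026). Tnni3 lies at chr1:69299900-69303582 on the plus strand of rn7. Its call held in 15 of 16 alternative analyses, with a smaller difference of -0.30 under quantile normalization (adjusted p = 0.0319), and turned to a difference of 0.21 with spike-in scaling. That scaling adds the same amount to every gene, and the median difference over all genes under it was 0.69.

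Tnnt2 had 17.68, 17.36, 17.52 and 17.40 in SHR animals, against 17.77, 17.84, 17.71 and 17.85 in BN-Lx animals. SHR animal 1 lay just below the lowest BN-Lx animal, and the ranges did not overlap (log2 difference -0.30, SE 0.08, adjusted p = 0.0247). The call of Tnnt2 held in 5 of 16 alternatives. It was lost without BN-Lx animal 2, BN-Lx animal 4 or SHR animal 2, 3 or 4, where the adjusted p lay between 0.052 and 0.082 and the difference between -0.31 and -0.26. Under quantile normalization it was -0.19 without passing, with the spike-in level as a covariate -0.15, and with spike-in scaling 0.37.

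Tnnc1 did not pass, with 16.17, 15.87, 15.77 and 15.78 in SHR and 16.20, 15.78, 16.04 and 15.78 in BN-Lx (-0.05, SE 0.11, adjusted p = 0.789). Animal 1 was the highest of its strain in both groups, which overlapped almost completely. Tnni1 had 6.86, 6.32, 5.98 and 6.21 in SHR, against 7.0, 5.92, 6.81 and 6.76 in BN-Lx (-0.28, SE 0.24, adjusted p = 0.483). The lowest library of this gene was BN-Lx animal 2, below all SHR animals.

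The largest differences that passed in the set were in transcripts of Tnnt2. Its assembled gene, at chr13:47267325-47297984 on the plus strand of rn7, held 26 measured transcripts, of which 4 passed the test over all 91973 assembled transcripts, all 4 lower in SHR. Over the 9 members 6 of 62 transcripts passed, all lower in SHR. Of all assembled transcripts 5.53% passed in either direction and 2.81% passed and were lower.

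Transcript PRN7.71T0478767 had 10.46, 10.26, 10.44 and 10.12 in SHR, against 12.28, 12.28, 12.31 and 12.39 in BN-Lx. The strains were far apart and each was tight, with an SD of 0.16 in SHR and 0.05 in BN-Lx (log2 difference -1.997, SE 0.11, adjusted p = 2.37e-05). PRN7.71T0478766 had 9.60, 9.46, 9.39 and 9.45 in SHR, against 11.33, 11.06, 11.49 and 11.66 in BN-Lx (-1.91, SE 0.14, adjusted p = 0.000145). PRN7.71T0478765 had 9.69, 9.43, 9.65 and 9.52 in SHR, against 11.44, 11.42, 11.10 and 11.26 in BN-Lx (-1.73, SE 0.12, adjusted p = 0.000111). These 3 transcripts stayed lower in SHR and passed in every one of 13 alternatives, spike-in scaling included, under which the differences were -1.18, -1.10 and -0.92.

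The most abundant Tnnt2 transcript, PRN7.71T0478772, had 16.14, 15.86, 15.94 and 15.87 in SHR, against 16.51, 16.54, 16.46 and 16.55 in BN-Lx (-0.56, SE 0.08, adjusted p = 0.00454). Its ranges did not overlap either, but the difference did not pass with the spike-in level as a covariate (-0.45) or without an intensity trend in the variance (adjusted p = 0.113) and was 0.25 with spike-in scaling. PRN7.71T0478754 had 15.62, 15.11, 15.40 and 15.16 in SHR, against 14.87, 15.10, 14.85 and 15.08 in BN-Lx. SHR was above BN-Lx without overlap, and the test was not passed (0.35, SE 0.13, adjusted p = 0.158). Outside Tnnt2 the transcripts called were PRN7.71T0004293, which made up 99.0 ± 0.15% of Tnni3 in SHR and 99.0 ± 0.14% in BN-Lx, and PRN7.71T0241402, a form of Tpm1 with a share of 0.11 ± 0.02% in SHR and 0.16 ± 0.01% in BN-Lx. Their differences were -0.48 (SE 0.10, adjusted p = 0.0263), which turned to 0.34 with spike-in scaling, and -0.82 (SE 0.19, adjusted p = 0.0437). The first call was lost without BN-Lx animal 1, 3 or 4 or SHR animal 2, 3 or 4 (-0.50 to -0.42, adjusted p 0.053 to 0.084), and that of the Tpm1 form also without BN-Lx animal 2 (-0.90 to -0.70 over these 7, adjusted p 0.066 to 0.11). Both calls were also lost with the spike-in level as a covariate and without the intensity trend, the first under quantile normalization (-0.27, adjusted p = 0.119) and the second with spike-in scaling (-0.0089).

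**Figure D1:**
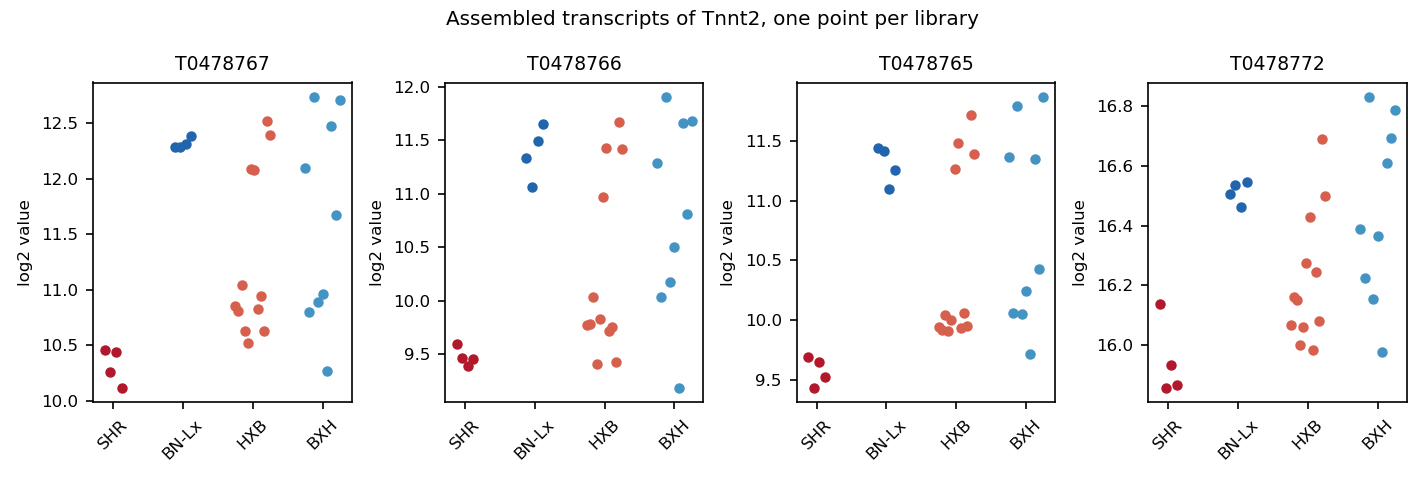
Log2 values (vertical axes) of 4 assembled Tnnt2 transcripts in SHR (4 animals), BN-Lx (4 animals), HXB (12 strains) and BXH (9 strains), 1 point per library, with shortened transcript names as titles. In the left 3 panels SHR sits below BN-Lx by -1.997, -1.91 and -1.73, while PRN7.71T0478772 differs by -0.56. In those 3 panels each family has strains near the level of either progenitor, with a few in between. For PRN7.71T0478766 the widest gap between strains is hardly wider than the gaps next to it.

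The 3 transcripts with the large difference had unusual starts of an early exon. In 24 of the 26 transcripts this exon ended at position 47272360 of chromosome 13, but it began at different places. PRN7.71T0478767 was the only transcript whose exon began at 47272287 and was 74 bases long. In PRN7.71T0478766 and PRN7.71T0478765 it began at 47272305 with 56 bases, after a first exon that ended at 47267437, 1 base before the end used by PRN7.71T0478772 and PRN7.71T0478754. In 11 transcripts that included PRN7.71T0478772 it began at 47272309, and 8 transcripts that included PRN7.71T0478754 began it at 47272313 and had 48 bases. In 4 transcripts it began at 47272308 with 53 bases.

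The window is shown because the 3 transcripts had starts of this exon that no other transcript had. Only PRN7.71T0478767 had the exon of 74 bases, and PRN7.71T0478766 and PRN7.71T0478765 also differed from the others in the end of the first exon. The window covers 30 bases at chr13:49824015-49824044 on the plus strand of GRCr8 (RefSeq). Its capitals mark the 22 bases that the exon of 74 bases would hold and that of 52 bases would not.
Tnnt2 exon start: acccgcagTGATGATTTTCTCTTTCTGGAG
The end of the exon was taken to lie just before the first GTAAGT, a sequence typical of intron starts, after the start codon. Counted back from there, lengths of 74, 52 and 48 bases each began directly behind the letters AG, with which introns end, whereas 53 and 56 did not. The lengths come from rn7 and the letters from GRCr8, and whether both builds or both strains have the same bases here was not tested.

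The share of Tnnt2 in transcripts with a given exon start differed between the strains for 4 of the starts, read here without a test because the grouping was made after the values were seen. The start at 47272313 accounted for 56.9 ± 1.62% of the summed linear values in SHR and 46.4 ± 0.57% in BN-Lx (SD, n = 4 each). Of its transcripts, PRN7.71T0478754 held 23.05 ± 1.22% in SHR and 14.6 ± 0.94% in BN-Lx. PRN7.71T0478749, with the same start, held 23.6 ± 0.89% in SHR and 23.6 ± 2.07% in BN-Lx, so the shift was not shared by all transcripts of this start. The start at 47272309 accounted for 40.3 ± 1.28% in SHR and 47.7 ± 0.48% in BN-Lx. Most of this was PRN7.71T0478772, at 35.6 ± 1.11% in SHR and 42.5 ± 0.45% in BN-Lx, the only transcript with a first exon from 47267356. The starts at 47272287 and 47272305 were minor, at 0.72 ± 0.06% and 0.83 ± 0.05% in SHR, against 2.32 ± 0.09% and 2.39 ± 0.15% in BN-Lx. The ranges of SHR and BN-Lx did not overlap for any of these 4 starts. The start at 47272308 did not move, at 1.24 ± 0.36% in SHR and 1.22 ± 0.53% in BN-Lx with overlapping ranges. All 8 transcripts of the start at 47272313 also shared the first exon from 47267325. These shares rest on estimates that divide reads among nearly identical transcripts, and reads that cross a given junction were not analysed here.

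In the recombinant inbred strains the same 3 transcripts were spread over the range of both progenitors, and each is described here on both sides of its widest gap, which for PRN7.71T0478766 was hardly wider than the gaps next to it. PRN7.71T0478767 was at 11.04 or below in 12 strains and at 11.67 or above in 9, with 10.27 the lowest, 10.97 the median and 12.74 the highest. PRN7.71T0478766 was at 10.17 or below in 11 strains and at 10.50 or above in 10, and PRN7.71T0478765 at 10.43 or below in 13 and at 11.27 or above in 8. As the sides were set from these values, they are a description. Of the 21 strains, 11 were on the low side in all 3 transcripts and 8 on the high side in all 3. The 8 on the high side were HXB5, HXB7, HXB24, HXB25, BXH6, BXH9, BXH10 and BXH12, and the 2 on different sides were BXH2 and BXH8.

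BXH8 had 11.67, 10.81 and 10.43 for PRN7.71T0478767, PRN7.71T0478766 and PRN7.71T0478765, and BXH2 had 10.97, 10.50 and 10.24. Across the 21 strains the 3 transcripts had Pearson correlations with each other of 0.964 to 0.977 (Spearman 0.905 to 0.949). PRN7.71T0478767 had r = 0.74 (rho = 0.76) with the level of the whole Tnnt2 gene and r = -0.92 (rho = -0.76) with the share of the exon start at 47272313. These are descriptions over values from the same libraries. The recombinant inbred strains were sequenced in other batches than the progenitors, and batch and strain cannot be told apart between them.

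Among the myosin genes no light chain passed between the progenitors. Myl2 had 18.43, 18.37, 18.27 and 18.25 in SHR, against 18.69, 18.23, 18.52 and 18.25 in BN-Lx (-0.09, SE 0.10, adjusted p = 0.598). The BN-Lx animals spanned the whole range of SHR. Myl3, the essential light chain of the ventricle, had 17.18, 17.02, 16.89 and 17.03 in SHR, against 17.43, 17.02, 17.31 and 17.16 in BN-Lx (-0.20, SE 0.09, adjusted p = 0.183), with SHR animal 1 above BN-Lx animals 2 and 4.

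Mybpc3, the cardiac myosin binding protein C, had 16.89, 16.62, 16.57 and 16.67 in SHR, against 16.95, 17.13, 16.76 and 17.04 in BN-Lx. Only SHR animal 1 lay above a BN-Lx animal, and the test was narrowly missed (-0.28, SE 0.09, adjusted p = 0.0642). Without SHR animal 1 the difference was -0.35 with an adjusted p of 0.025, and without BN-Lx animal 3 it was -0.35 with 0.029.

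The heavy chains did not have a gene each in the assembly. The gene named Myh7 alone, at chr15:28344828-28469888 on the minus strand of rn7, held 22 transcripts that together spanned both neighbouring heavy chain genes, and its highest transcript, PRN7.71T0485167, covered 28418126 to 28442370. The gene as a whole had 20.39, 20.19, 20.42 and 20.42 in SHR, against 19.95, 20.34, 19.85 and 20.41 in BN-Lx (0.21, SE 0.12, adjusted p = 0.281). PRN7.71T0130406, which covered 28446550 to 28468217, was at 11.7 ± 1.47 in SHR and 13.7 ± 1.59 in BN-Lx (SD, n = 4 each). These transcripts were not assigned to Myh6 or Myh7 here, and no value of Myh6 is given for the progenitors.

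Of the thin filament rods, Tpm1 had 17.67, 17.52, 17.55 and 17.47 in SHR, against 17.92, 17.68, 17.85 and 17.78 in BN-Lx. The highest SHR animal was just under the lowest BN-Lx animal, and the difference passed (-0.26, SE 0.07, adjusted p = 0.0377). The call of Tpm1 held in only 3 of 16 alternatives. It was lost without BN-Lx animal 1, 3 or 4 or SHR animal 2, 3 or 4 (adjusted p 0.067 to 0.11, difference -0.27 to -0.22), and it was -0.16 without passing under quantile normalization and 0.42 with spike-in scaling. Actc1 had 18.81, 18.47, 18.58 and 18.66 in SHR, against 18.72, 18.46, 18.62 and 18.45 in BN-Lx (0.07, SE 0.09, adjusted p = 0.683). Its ranges overlapped, and with the mean of both libraries of SHR animal 4 among the assembled values the difference was -0.0019. With spike-in scaling Actc1 was the 1 member that passed, as higher in SHR (0.74, adjusted p = 0.0468).

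**Figure D2:**
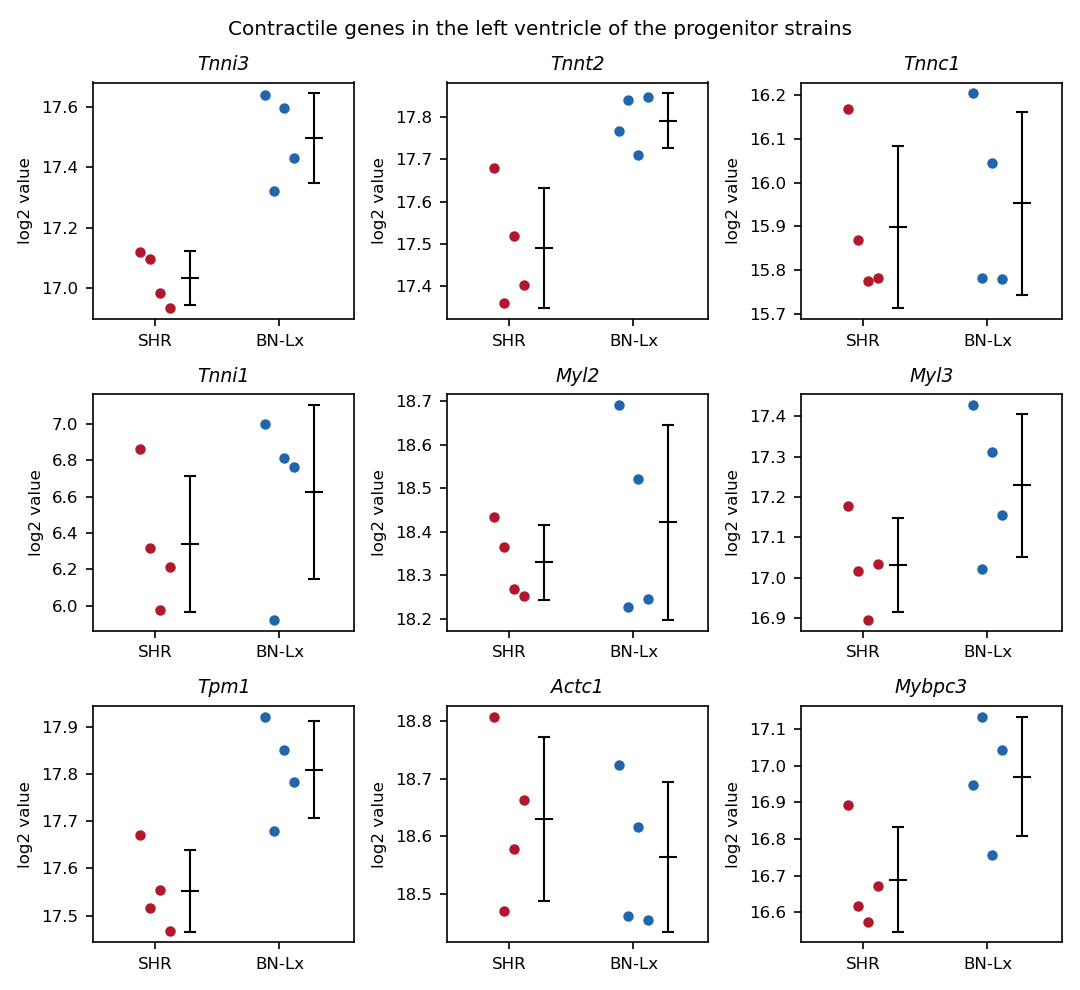
Log2 values (vertical axes, a scale for each gene) of the 9 members with an assembled gene in 4 SHR and 4 BN-Lx animals, with the mean and SD as bars beside the points. Tnni3, Tnnt2 and Tpm1 are the genes whose SHR points all lie below the BN-Lx points, and their differences of -0.47, -0.30 and -0.26 turn positive with spike-in scaling.

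Between the recombinant inbred families, 4 of the 10 members passed the test over 19100 RefSeq genes, all lower in HXB on the deposited scale and all with a positive difference under spike-in scaling, while quantile normalization turned Actc1 and Myl2 positive as well. The 4 were Myl3, Tnni3, Actc1 and Myl2. Of all RefSeq genes 36.3% passed in either direction, and 17.8% passed and were lower. The median difference was -0.13 over the 10 members, 9 of them negative, against -0.01 over all genes. The ranges of HXB and BXH overlapped for all 10 members.

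Myl3 differed most, with 17.07 the lowest, 17.19 the median and 17.59 the highest in the 12 HXB strains, against 17.37, 17.79 and 17.91 in the 9 BXH strains. All HXB strains other than HXB3 and HXB5 lay below every BXH strain, and Myl3 fell by 27.7% in HXB (log2 difference -0.47, SE 0.08, adjusted p = 0.00038, with batch as a term). Under quantile normalization the difference of Myl3 was -0.21 and passed (adjusted p = 0.00161). Myl2 had 18.20, 18.39 and 18.67 in HXB as its lowest, median and highest value, against 18.42, 18.55 and 18.91 in BXH. Its families overlapped widely, and its call was close to the threshold (-0.21, SE 0.08, adjusted p = 0.0456), held in 10 of 30 alternatives with the same direction and was lost without any of 14 single strains.

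The strains whose removal ended the call of Myl2 were BXH2, BXH6, BXH8, BXH10, BXH11 and BXH12 among the BXH strains and HXB13, HXB17, HXB20, HXB21, HXB24, HXB25, HXB29 and HXB31 among the HXB strains. The adjusted p then lay between 0.050 and 0.094 and the difference between -0.22 and -0.17. Quantile normalization gave 0.09 (adjusted p = 0.043). Myh6 had 19.99, 20.42 and 20.71 in HXB, against 20.29, 20.36 and 20.74 in BXH (-0.03, SE 0.11, adjusted p = 0.845). Its families overlapped over nearly the whole range on the deposited scale, while under quantile normalization the difference was -0.20 and passed (adjusted p = 0.0428).

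Tnni3 had 17.26, 17.46 and 17.71 as the lowest, median and highest of HXB, against 17.53, 17.71 and 17.95 in BXH. The highest HXB strain, HXB5, was close to the median of BXH (-0.28, SE 0.07, adjusted p = 0.00568), and the difference was -0.02 without passing under quantile normalization. Tnnt2 had 17.61, 17.73 and 17.85 in HXB, against 17.57, 17.68 and 17.90 in BXH, the narrowest span of the set at 0.335 over the 21 strains. The test was not passed on the deposited scale (0.00, SE 0.06, adjusted p = 0.974), whereas Tnnt2 passed as higher in HXB under quantile normalization (0.22, adjusted p = 0.00341) and with spike-in scaling (0.57, adjusted p = 0.000181). Tnnc1 had 15.82, 16.02 and 16.09 in HXB, against 15.88, 16.07 and 16.37 in BXH (-0.11, SE 0.06, adjusted p = 0.175).

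Tnni1 spanned 6.20 to 7.21 with a median of 6.70 in HXB, against 6.43 to 7.55 with a median of 6.81 in BXH (-0.14, SE 0.13, adjusted p = 0.438). It had the widest span among the members, 1.35 over the 21 strains. Actc1 had 18.52, 18.75 and 18.91 in HXB, against 18.74, 18.93 and 19.20 in BXH (-0.24, SE 0.08, adjusted p = 0.0195). The 5 highest strains for Actc1 were all BXH, and quantile normalization turned the difference to 0.13 (adjusted p = 0.009).

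Tpm1 had 17.76, 17.86 and 18.07 in HXB, against 17.84, 17.94 and 18.10 in BXH (-0.12, SE 0.06, adjusted p = 0.116). Mybpc3 had 16.76, 17.00 and 17.27 in HXB, against 16.93, 17.06 and 17.38 in BXH (-0.10, SE 0.07, adjusted p = 0.261). In the assembled table Tnnc1, Tpm1 and Mybpc3 passed as lower in HXB (-0.27, -0.29 and -0.27), where 12871 of 46063 genes passed and 5912 of these were lower. Tpm1 passed with its difference of -0.12 also without an intensity trend or with a minimum mean of 5 (adjusted p = 0.0392 and 0.0436). HXB5 was the highest HXB strain for 7 of the 10 members and BXH12 the highest BXH strain for 5, while HXB20 was the lowest HXB strain for Myl3, Myh6, Actc1 and Mybpc3.

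**Figure D3:**
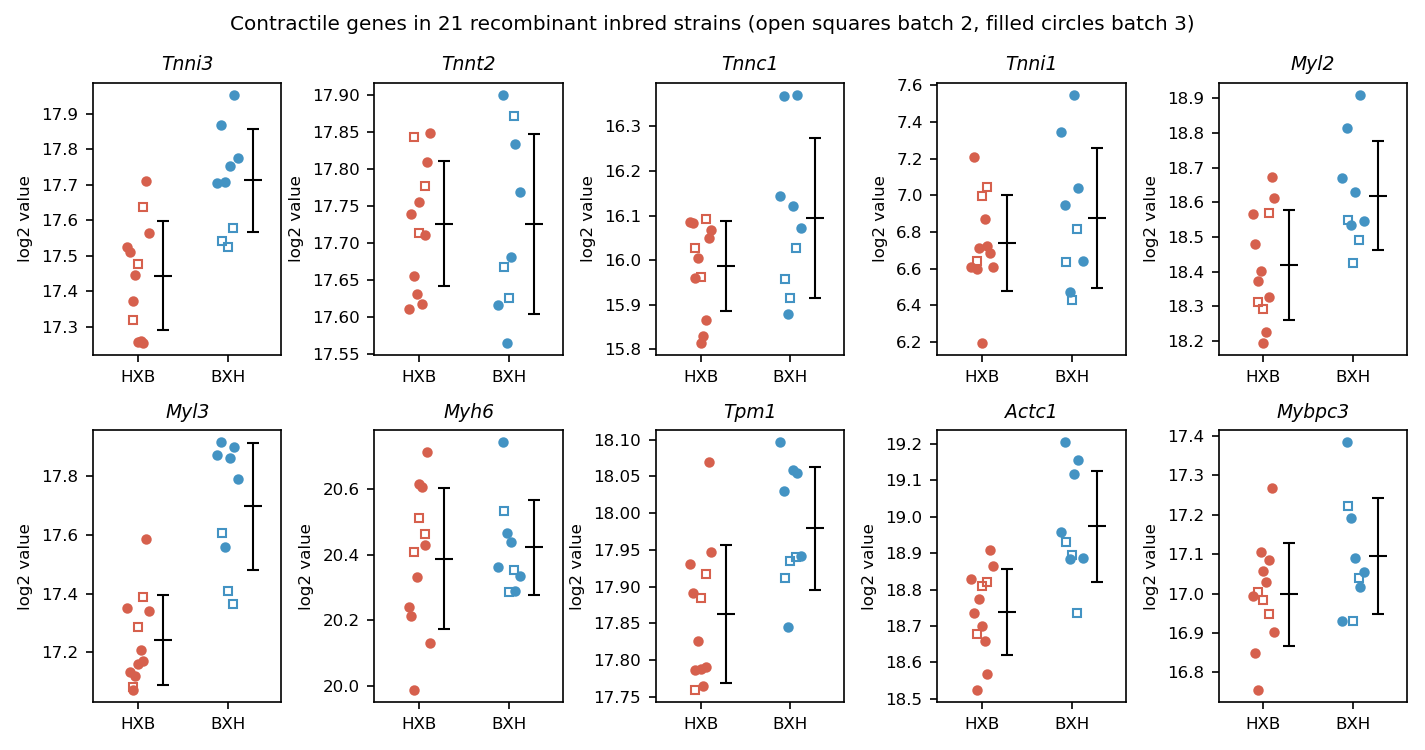
Log2 values (vertical axes, a scale for each gene) of the 10 members in 12 HXB and 9 BXH strains, with the mean and SD over strains as bars and the sequencing batch as the symbol. Myl3 shows the widest separation, -0.47, the families overlap for every gene, and the sign of the 4 called differences turns with spike-in scaling (for Actc1 and Myl2 also with quantile normalization).

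Within batch 3, which held 9 HXB and 6 BXH strains, the differences were -0.58 for Myl3, -0.36 for Tnni3, -0.30 for Actc1 and -0.26 for Myl2. Within batch 2, with 3 strains of each family, they were -0.21, -0.07, -0.08 and -0.10 for the same genes, and no gene of the whole table passed there. The spike-in levels moved with the families in the same way. Within batch 3 their mean was 6.80 ± 0.13 in HXB and 7.53 ± 0.25 in BXH (SD, n = 9 and 6), and within batch 2 it was 6.87 ± 0.12 in HXB and 7.04 ± 0.39 in BXH (SD, n = 3 each).

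Over the 21 strains the level of Myl3 had r = 0.84 (rho = 0.80) with the spike-in level, Tnni3 r = 0.67 (rho = 0.75), Actc1 r = 0.65 (rho = 0.75) and Tnnt2 r = 0.09 (rho = 0.18). Inside the families r was 0.44 in HXB and 0.69 in BXH for Myl3, and 0.39 in HXB and 0.29 in BXH for Tnni3. These correlations are descriptions, since spike-ins and genes share each library and the families form separate groups. With the spike-in level as a covariate, none of the members and 0 of 19100 genes passed by limma, where 2006 genes had an unadjusted p below 0.05, and the difference of Myl3 was -0.25. With scaling to the spike-ins the median difference over all genes was 0.56 and 9 of the 10 members passed as higher in HXB, Myl3 being the exception at 0.10. Under it Tnni3, Actc1 and Myl2 were at 0.29, 0.33 and 0.36, all genes having been moved by the same amount.

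Length and level also moved with the difference. Of the 9 members with a transcript length, 8 were among the 2935 genes with the shortest transcripts, up to 1811 bases. There the median HXB minus BXH difference was -0.10, and it was 0.10 over the 2937 genes with the longest. For SHR minus BN-Lx the medians of these shortest and longest genes were -0.07 and 0.08. The 83 genes with a mean log2 value of 15 or more, which included 9 members, had a median HXB minus BXH difference of -0.18. The part of length, level and spike-in content in the members' differences was not tested.

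**Figure D4:**
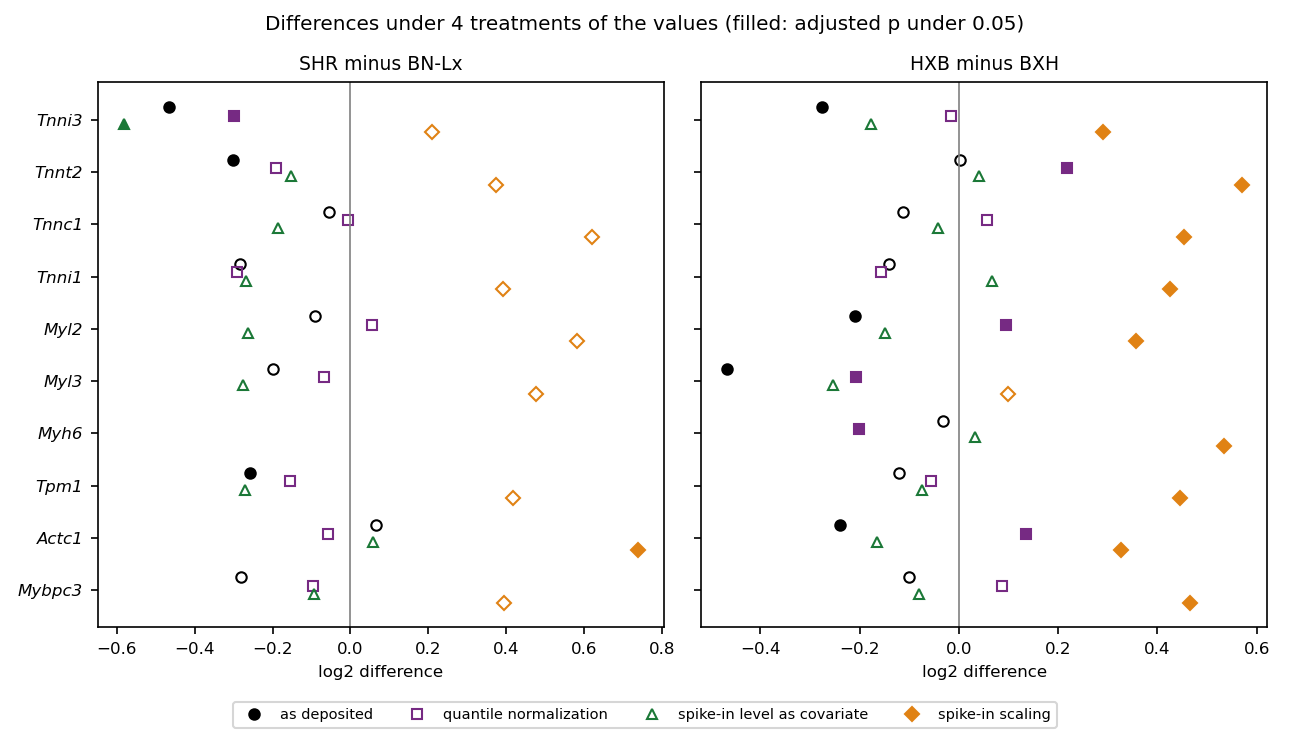
Log2 difference (horizontal axes) of each member for SHR minus BN-Lx and for HXB minus BXH under 4 treatments of the same values, with symbols filled where the adjusted p was below 0.05. Spike-in scaling puts all members on the positive side, for example Tnni3 at 0.21 and 0.29, while the deposited values give -0.47 and -0.28.

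RefSeq transcripts were assigned to genes by accession, which matched 28492 of 39661 to a symbol, and only matched ones are counted for the members. Of 22 such transcripts 7 passed between the families, 6 lower and 1 higher in HXB. The only matched transcript of Mybpc3 and that of Tnnt2 lay far below the level of their gene. The 22 are therefore not the full set of the members' transcripts. Over all 39595 RefSeq transcripts tested, matched or not, 19% passed in either direction and 8.63% passed and were lower. Both transcripts of Myl3 were lower in HXB, NM_012606.2 by -0.50 (SE 0.08, adjusted p = 0.0015) and XM_006243917.4 by -0.38 (SE 0.09, adjusted p = 0.00826), as were both of Myl2 and the only one of Actc1. All 6 lower transcripts turned positive under spike-in scaling, and the most abundant ones of Myl2, Tnni3 and Actc1 were at 0.00 to 0.07 under quantile normalization. Tnni3 had a transcript in each direction. NM_017144.2 was lower in HXB (-0.30, SE 0.07, adjusted p = 0.00638). The minor XM_039103599.1 had 10.30, 10.54 and 11.06 as lowest, median and highest value in HXB, against 9.90, 10.25 and 10.66 in BXH, and was higher in HXB on the deposited scale and with spike-in scaling (0.30, SE 0.09, adjusted p = 0.0194, and 0.93). Of Tnnt2 only 1 RefSeq transcript was analysed here, so the exon starts above were not read from this table.

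Tnni3, Tnnt2, Myl2 and Actc1, and between the families also Myh6, were set against a related gene of the same library, which removes any scaling of the library as a whole. Skeletal actin, Acta1, is expressed beside Actc1 in the heart. It had 15.80, 15.69, 15.04 and 15.67 in SHR, against 14.87, 14.66, 14.53 and 14.74 in BN-Lx, all SHR values being higher (0.85, SE 0.14, adjusted p = 0.00146). The within-library difference of Actc1 minus Acta1 was 3.08 ± 0.32 in SHR and 3.86 ± 0.16 in BN-Lx (SD, n = 4 each), without overlap. This gap of -0.78 had p = 0.0286 in an exact 2-sided permutation test, the smallest p that 4 against 4 allows, and 0.114 after adjustment over 4 such differences.

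Myl2 minus Myl7, the ventricular against the atrial regulatory light chain, was 11.4 ± 0.67 in SHR and 12.6 ± 0.59 in BN-Lx (exact permutation p = 0.0571, adjusted 0.114, n = 4 each). Myl7 itself had 6.82, 7.78, 6.10 and 7.104 in SHR, against 5.85, 5.78, 5.30 and 6.42 in BN-Lx (1.11, SE 0.31, adjusted p = 0.033), with SHR animal 3 below the highest BN-Lx animal. Tnni3 minus Tnni1 differed by -0.18 and Tnnt2 minus Tnnt1 by -0.04, both within the spread. Tnnt1 was low, at 4.53 ± 0.51 in SHR and 4.79 ± 0.47 in BN-Lx, and Tnni1 had an SD of 0.37 in SHR and 0.48 in BN-Lx (n = 4 each). Both differences carry the spread of the low partner, so they cannot show whether Tnni3 or Tnnt2 differed.

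Between the families none of 5 such differences passed after adjustment. Myh6 minus Myh7, the alpha against the beta heavy chain, was 4.82 ± 0.44 in HXB and 4.50 ± 0.42 in BXH (SD, n = 12 and 9, exact permutation within batch, 2-sided p = 0.118, adjusted 0.228). Myh7 ranged from 14.80 in HXB7 to 16.50 in BXH6, a wider span than that of Myh6. Actc1 minus Acta1 was 3.50 ± 0.43 in HXB and 3.203 ± 0.17 in BXH (exact permutation p = 0.0707, adjusted 0.228). Acta1 was lower in HXB, with 14.73, 15.03 and 16.02 as lowest, median and highest, against 15.46, 15.73 and 16.18 in BXH (-0.55, SE 0.15, adjusted p = 0.00833).

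Across the 21 strains, after centring within batch, the 45 pairs of members had correlations from -0.09 to 0.92 with a median of 0.42, and 43 were positive. Tnni3, Myl2, Actc1, Myl3 and Tpm1 moved most closely together, with r = 0.92 for Tnni3 and Myl2, 0.90 for Myl3 and Actc1 and 0.89 for Tnni3 and Myl3. Myh6 went with Mybpc3 (r = 0.81) and little with Tnni3 (0.10) or Myl2 (0.03). Tnnt2 correlated best with Tnnc1 (r = 0.55, rho = 0.39, and r = 0.37 without the 2 farthest strains). Tnni1 had no Pearson correlation above 0.54 with any member (rho = 0.62 with Tnnc1). These are descriptions over 21 strains whose values share library and family.

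**Figure D5:**
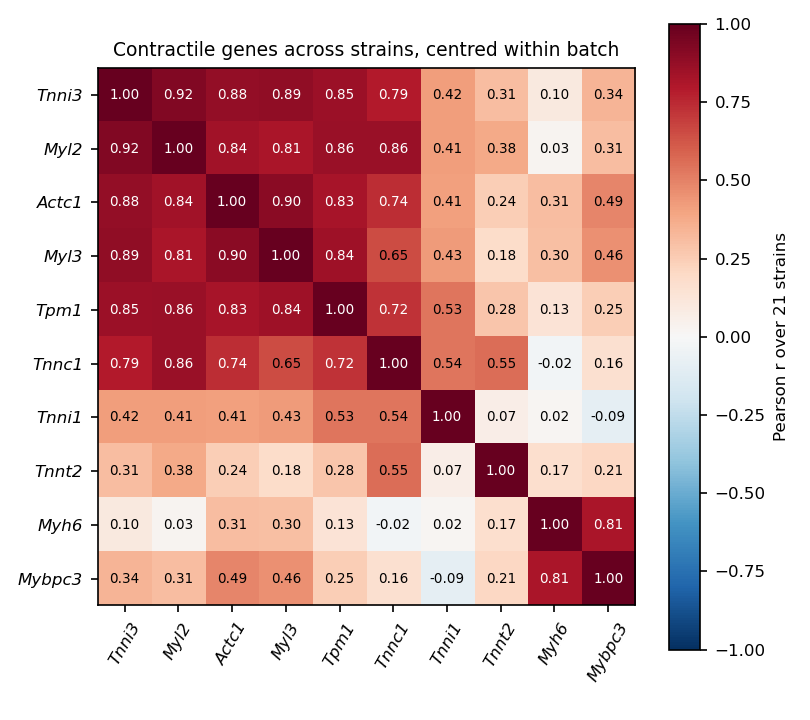
Pearson correlation of each pair of members over 21 recombinant inbred strains after centring within batch, on a scale running from -1 to 1, with the value printed in each cell. The block of Tnni3, Myl2, Actc1, Myl3 and Tpm1 reaches 0.92, and Myh6 pairs with Mybpc3 at 0.81.

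The genes most like each member over the strains were mostly outside the filaments. For Tnni3 they were Psma7, mrpl9 and Rpl27 (Pearson r = 0.976, 0.971 and 0.97), a proteasome subunit and 2 ribosomal proteins, and for Myl3 they were Eno1, Fxyd1 and Surf4 (0.977, 0.972 and 0.972). For Myl2 they were Lage3, Ndufb4 and Mrpl57 (0.947, 0.946 and 0.944), for Tpm1 Reep5, Rpl36 and Rpl35 (0.921, 0.917 and 0.916), and for Actc1 Nelfe, Nubp1 and Fuom (0.938, 0.931 and 0.926). Myh6 was most like Tacc2, Sptb and Acacb (0.912, 0.911 and 0.909), and Mybpc3 most like Mfn2, Slc12a7 and Tango2 (0.933, 0.896 and 0.891). For Tnnc1 they were Mrpl27, Psmd4 and Acat1 (0.909, 0.905 and 0.89), for Tnnt2 Psmd7, Rab3gap1 and Vcp (0.781, 0.745 and 0.742), and for Tnni1 LOC100912167, Celsr3 and Fundc2 (0.747, 0.744 and 0.744).

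The strain values of Tnnc1, Myl3 and Tpm1 were best described by 3 groups in a mixture model and those of the other 7 members by 1. Of all RefSeq genes 15.6% had more than 1 group, so 3 of 10 members is read beside that share. Without centring within batch only Myl3 and Tpm1 had more than 1.

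Of 23 other genes of the thick and thin filaments, 17 were measured between the progenitors, and 3 were higher and 4 lower in SHR. Each count of this kind stands beside the 14.3% of all assembled genes that passed between the progenitors and the 36.3% of all RefSeq genes that passed between the families. Besides Acta1 and Myl7, the higher ones included Mybpc2, the fast skeletal binding protein C, at 7.65 ± 0.10 in SHR and 6.90 ± 0.17 in BN-Lx (SD, n = 4 each). Beta-tropomyosin, Tpm2, was 10.7 ± 0.12 in SHR and 11.98 ± 0.09 in BN-Lx, a difference of -1.29 without overlap (adjusted p = 4.19e-07). The light chains Myl1 and Myl4 were lower in SHR by -1.47 and -0.97 on the log2 scale, both at low levels. Myl1 was at 4.38 ± 0.31 in SHR and 5.85 ± 0.40 in BN-Lx, and Myl4 at 6.66 ± 0.50 in SHR and 7.63 ± 0.22 in BN-Lx. Between the families 19 of the 23 were measured and 2 passed, Myh7b higher in HXB (0.17) and Acta1 lower.

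For the Z-disc and filament assembly, 4 of 19 measured genes were higher and 4 lower in SHR. Csrp3, the muscle LIM protein, was 13.9 ± 0.08 in SHR and 13.4 ± 0.11 in BN-Lx (0.51, adjusted p = 0.000434), and Xirp2 and Tcap were higher by 0.34 and 0.43. Nrap, Nebl and Tmod4, which help to build or cap thin filaments, differed by -0.46, -0.31 and -0.48. Between the families 6 of 20 were higher and 4 lower in HXB, with Xirp2 at 0.60, Nebl at 0.47 and Capza2 at 0.35 and with Actn2, the alpha-actinin of the Z-disc, at -0.23, Myoz2 at -0.21 and Unc45b at -0.18.

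Of the kinases and phosphatases that act on the filaments, Rock1 was higher in SHR (0.39) and Mylk3, the cardiac myosin light chain kinase, lower (-0.28) among 12 measured. Between the families 9 of 14 were higher and 2 lower in HXB, where 36.3% of all RefSeq genes passed in either direction, the leading ones being Rock1 (0.62), Rock2 (0.53) and Prkd1 (0.25) and, in the other direction, Prkaca (-0.25) and Dapk3 (-0.26). Of 17 cardiac transcription factors 2 were higher and 3 lower in SHR. Hopx stood apart, at 9.74 ± 0.05 in SHR and 11.5 ± 0.19 in BN-Lx (SD, n = 4 each), a difference of -1.78 (adjusted p = 9.92e-08). Gata4 and Mef2d were higher by 0.41 and 0.31, and Irx4 and Thrb differed by -0.40 and -0.38. In HXB, Mef2a (0.33) and Mef2c (0.31) were higher, and 6 of the 18 factors measured there were lower, Nkx2-5 (-0.47), Thra (-0.25) and Srf (-0.23) among them. These counts and differences are on the deposited scale alone.

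Markers of other cells were counted in the same fits. Between the progenitors 4 of 6 endothelial markers were higher and 1 lower in SHR, with Eng at 0.60, Cdh5 at 0.44, Tie1 at 0.43 and Vwf at -0.52, and their sum lay between 15.71 and 15.84 in SHR and between 15.65 and 15.72 in BN-Lx. Of 4 macrophage markers 2 were lower in SHR, Cd163 by -0.65 and Mrc1 by -0.35, with sums of 11.99 to 12.23 in SHR and 12.30 to 12.43 in BN-Lx. Fibroblast sums were 15.30 to 15.59 in SHR and 15.31 to 15.41 in BN-Lx, those of pericytes and smooth muscle 13.34 to 13.37 in SHR and 13.14 to 13.32 in BN-Lx, and those of erythroid cells 16.4 to 17.7 in SHR and 16.9 to 17.6 in BN-Lx. Of 6 fibroblast markers Col1a1 was higher (0.45) and Dcn lower (-0.25) in SHR. Of 6 atrial markers Myl7 was higher and Myl4 and Gja5 (-0.45) lower, of 6 pericyte and smooth muscle markers Acta2 (0.58) and Pdgfrb (0.28) were higher, and none of 4 erythroid markers passed by limma. Of the skeletal muscle markers 3 of 8 were measured, and 2 of these had a mean below 5 in each strain. Their sums of 10.1 to 10.5 in SHR and 10.3 to 10.6 in BN-Lx thus rest mostly on 1 marker. Tnni2 was lower in SHR but near the floor, at 1.72 ± 0.37 in SHR and 2.73 ± 0.20 in BN-Lx (SD, n = 4 each). Of the adipocyte markers 1 of 5 was measured and did not pass. In bulk tissue, fewer cells of a type and less RNA per cell cannot be told apart, and the part of cell composition in the members' differences was not tested.

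Between the families, the atrial markers summed to 12.3 to 14.1 in HXB and 12.5 to 14.1 in BXH, and of 7 markers Stard10 was lower in HXB (-0.54). Endothelial sums were 14.9 to 15.4 in HXB and 15.2 to 15.6 in BXH, with Kdr higher (0.14) and Pecam1 lower (-0.15), and macrophage sums 12.2 to 12.6 in HXB and 12.4 to 12.7 in BXH, with Cd68 (-0.46) and Csf1r (-0.24) lower of 5 markers. Of 6 fibroblast markers Lum was higher in HXB (0.23), and of 7 pericyte and smooth muscle markers Myh11 (0.26) and Rgs5 (0.19). None of the erythroid, skeletal muscle or adipocyte markers passed by limma, and the sums of the 4 skeletal muscle markers measured were 5.29 to 6.04 in HXB and 5.42 to 5.83 in BXH. Of these 4, 3 had a mean below 5 in HXB and all 4 in BXH. The sums are of RefSeq genes and are not comparable with those of the progenitors, which are of assembled genes.

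The sequence before the start of transcription was read for the members that moved together across strains. RefSeq windows of 250 bases were available for 8 of the 10 members, 9 windows in all with 2 for Tnnt2, on GRCr8. Tnnc1 and Myl2 had none. Those of Tnni3 and Myl3, from the block around troponin I, and of Myh6 and Mybpc3, the other pair, are shown over their last 120 bases. They run 5′ to 3′ on the strand of the gene, with motif matches in capitals. Matches to the E-box CANNTG, which was searched too, are left in lower case.
Tnni3 chr1:78342451-78342570 plus strand: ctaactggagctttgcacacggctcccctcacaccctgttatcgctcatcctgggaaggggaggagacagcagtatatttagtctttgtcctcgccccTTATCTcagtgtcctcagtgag
Myl3 chr8:119616974-119617093 plus strand: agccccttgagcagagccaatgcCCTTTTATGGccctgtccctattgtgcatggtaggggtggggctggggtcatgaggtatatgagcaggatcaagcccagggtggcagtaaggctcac
Myh6 chr15:32411698-32411817 minus strand: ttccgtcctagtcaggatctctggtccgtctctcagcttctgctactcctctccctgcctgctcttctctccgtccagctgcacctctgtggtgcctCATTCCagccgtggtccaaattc
Mybpc3 chr3:97550941-97551060 plus strand: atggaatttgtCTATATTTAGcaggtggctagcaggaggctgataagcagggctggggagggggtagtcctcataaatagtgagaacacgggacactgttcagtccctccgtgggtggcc
The capitals mark a match on the other strand to AGATAA, bound by GATA factors, in Tnni3 at -22 to -17, a CArG box in Myl3 at -97 to -88, CATTCC in Myh6 at -23 to -18 and a MEF2 motif in Mybpc3 at -109 to -100.

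All motifs were searched on both strands over 250 bases, and matches of different motifs may overlap. CATTCC, the motif of TEAD factors, was in 4 of the 9 member windows, those of Tpm1, Myl3, Tnnt2 and Myh6, and in 12.1% of 33469 windows. AGATAA was in the windows of Tnni3 and Tnnt2 and in 10.3% of all, the CArG box in Myl3 alone and in 1.497% of all, and the MEF2 motif in Mybpc3 alone and in 2.96% of all. The E-box CANNTG was in 7 of the 9 and in 65.5% of all windows, and TATAAA was in none of the 9 and in 12.9% of all. None of these motifs was found in all of the windows of Tnni3, Actc1, Myl3 and Tpm1, the members of the block that had one.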

How the data were processed

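Total RNA from left ventricle was depleted of ribosomal RNA and sequenced as stranded libraries with added spike-in RNAs. The log2 values per gene and per transcript were used as deposited. The build rn7 and the tools RSEM 1.3.1, StringTie 1.3.5, HISAT2 2.1.0, Bowtie2 2.3.4.3, DESeq2 and cutadapt 1.9.1 appear in the notes on processing that the submitters left, while what each did and how the authors took the log2 is not given in the sources used here. Estimated transcript abundances divide reads among similar transcripts, and no counts came with the values, so the depth per library is unknown.

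The progenitor comparison, 4 SHR against 4 BN-Lx animals of batch 1, used the assembled features, and that of 12 HXB against 9 BXH strains used the RefSeq features with batch as a term. Linear models over all features came from limma 3.58.1 (R 4.3.3), whose moderated variances followed the mean level, and p-values were adjusted by Benjamini-Hochberg and called below 0.05. P-values measure the spread between these animals or strains. Differences between related genes used exact permutation tests (scipy 1.17.1), and modes used mclust 6.1.1 after centring within batch with up to 3 components. An assembled gene stood for a member if it carried that single name and had the highest mean. For values per length, each assembled transcript of a gene was divided by its own length in kilobases, and the sum was taken to log2. In simulated data with the same numbers of features, 14% of genes with a log2 change of 0.5 and 34% with a change of 1 were called between the progenitors, and 80% and 100% between the families. The changes were placed in a small number of genes drawn at random from all levels, far fewer than were called in the data. These shares therefore do not give the recovery for the members, most of which were among the highest genes.

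The members and lists were chosen with earlier results of these data known. Named in the text are all members, their related genes, of each other list the called genes of smallest p with at most 3 in each direction, and the 3 genes most correlated with each member. The Tnnt2 exon starts were grouped after their values were seen. Earlier versions of the tables and the other libraries of SHR animal 4 were left out of the main comparison. Alternatives were quantile normalization, scaling to the spike-ins, the spike-in level as a covariate, no intensity trend, a minimum mean of 5, other sets of libraries or terms, and leaving out each library.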

Additional observations from a re-analysis of the deposited data

How the results depend on the processing

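Under scaling to the spike-ins the median difference over all genes was 0.69 between SHR and BN-Lx and 0.56 between HXB and BXH, and the scaling turned the sign of most members. For SHR minus BN-Lx it gave 0.21 for Tnni3, 0.37 for Tnnt2, 0.62 for Tnnc1, 0.39 for Tnni1, 0.58 for Myl2, 0.48 for Myl3, 0.42 for Tpm1 and 0.39 for Mybpc3 (and 0.74 for Actc1, already positive), and for transcripts 0.34 for PRN7.71T0004293 and 0.25 for PRN7.71T0478772. For HXB minus BXH it gave 0.29 for Tnni3, 0.45 for Tnnc1, 0.43 for Tnni1, 0.36 for Myl2, 0.10 for Myl3, 0.53 for Myh6, 0.45 for Tpm1, 0.33 for Actc1 and 0.47 for Mybpc3, and for transcripts 0.41 for NM_001035252.2, 0.13 for NM_012606.2, 0.33 for NM_017144.2, 0.37 for NM_019183.1, 0.25 for XM_006243917.4 and 0.38 for XM_039089640.1. Quantile normalization gave 0.056 for Myl2 and -0.056 for Actc1 between the progenitors, and 0.056 for Tnnc1, 0.095 for Myl2, 0.13 for Actc1, 0.087 for Mybpc3, 0.0066 for NM_001035252.2, 5.7e-07 for NM_017144.2 and 0.074 for NM_019183.1 between the families. The spike-in covariate, and the scaling of transcripts, were chosen after seeing the data. The covariate gave 0.066 for Tnni1 and 0.031 for Myh6 between the families. Batch 2 alone gave 0.061 for Tnnc1, 0.27 for Tnni1 and 0.070 for Myh6. For Tnnt2 batch 3 alone gave -0.019 and the assembled genes -0.15. With the mean of the libraries of SHR animal 4, Actc1 was at -0.0019. The causes were not tested.

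Of 46063 assembled genes, 6603 were called between the progenitors, against 1849 with the covariate, 18446 with spike-in scaling, 3916 with all groups and batch in the fit, and 4377 to 6114 with 1 library left out, the lowest without SHR animal 4. Of the members, 3 were called, against 1 (Tnni3) under quantile normalization, the covariate, no intensity trend, a minimum mean of 5 or all groups, 1 with spike-in scaling (Actc1, higher in SHR), and 1 to 4 with 1 library left out (1 without BN-Lx animal 4 or SHR animal 2, 3 or 4). Of their transcripts 6 were called, against 3 with the covariate or without the trend and 15 with spike-in scaling. Between the families 6940 genes were called, against 17750 with spike-in scaling, 0 with the covariate, 0 in batch 2 alone (1561 with an unadjusted p below 0.05 by limma) and 12871 in the assembled table. Members called were 4, against 9, 0, 0 and 7 in the same order, and their matched RefSeq transcripts 7, against 18 with spike-in scaling and 0 with the covariate. With 1 library left out Tnnc1 was between -0.15 and 0.029 and Tnnt2 minus Tnnt1 between -0.28 and 0.12 for the progenitors, and Tnnt2 was between -0.017 and 0.029 and Myh6 between -0.062 and 0.012 for the families.

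With a replicate block 5437 assembled genes and 1891 assembled transcripts were called, against 5084 transcripts without it. Same-numbered animals had correlations of 0.19, -0.38, -0.17 and 0.15, so the numbers were not read as pairs. Tnni3, Tnnt2 and Tpm1 passed with the replicate block as without it, and transcripts PRN7.71T0004293 and PRN7.71T0241402 did not (adjusted p = 0.072 and 0.082). No paired analysis was possible between HXB and BXH because their numbers only follow the order of the strains.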
